A study of Mus musculus with 4 samples.

Results

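Nucleoporins build the nuclear pore complex, and transport receptors carry proteins and RNA through it. The arrays were read here for 47 mouse genes of this system, 27 nucleoporins and 20 genes of transport receptors and the Ran cycle, in ES cells that express a Nup98-HoxA9 fusion. A gene was taken in when a probe of the array, other than a control, carries a RefSeq transcript of it. All 47 genes had one, through 66 of the 55681 probes, and the array names 20257 genes in all by this route. A gene was read at its brightest probe, by the mean signal over the arrays. No measured value was used to choose the genes, but they were proposed with earlier results of these arrays known.

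The study asked what stable expression of Nup98-HoxA9, a leukaemia fusion of the FG repeats of Nup98 with the homeodomain end of HoxA9, does to transcription in mouse ES cells. RNA of 4 lines was hybridised with Cy3 label to a one-colour Agilent expression array, 1 array a line. The lines were parental EB3 ES cells, without a transgene, Nup98-HoxA9 ES clone #1 and clone #9, each an independent colony with the FLAG-tagged fusion of human Nup98 and HoxA9, and 1 colony of HoxA9-Ct ES, which express the HoxA9 end alone. Each transgene was inserted by Tol2 transposition from the pT2A-CMH vector and selected with hygromycin B, which the parental cells did not undergo. All lines grew on gelatin with LIF, the cytokine that keeps ES cells undifferentiated. The arrays lay on 1 slide and were scanned together.

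A pore consists of a scaffold (the Y complex and the inner ring), membrane anchors, filaments on the cytoplasmic face, a basket on the nuclear face, and a central channel filled with disordered FG repeats. Importins bind their cargo in the cytoplasm and release it in the nucleus where Ran is bound to GTP, whereas exportins bind cargo together with Ran-GTP in the nucleus. Xpo1, also called Crm1, exports proteins with a leucine-rich signal, and Nup98 and Nup214 are among the FG nucleoporins that contact it. ES cells divide rapidly and rebuild their pores at every division.

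Levels are log2 ratios of the spot signal to the array's 75th percentile, and differences are differences of these levels. Levels of different genes are not set against each other, since probes differ in brightness, which also weights the sums over marker lists below. Each array held 59305 spots other than controls, of which 49.9% to 53.0% were well above background, and 0 spots were saturated. The 399 probes printed 10 times had a median SD between spots of 0.105 to 0.118. For the 241 of them well above background in all lines it was 0.063 to 0.071. The 10 pluripotency markers checked, among them Pou5f1, Nanog and Esrrb, were well above background in every line. Of 6 primitive endoderm markers, 5 were well above background in parental cells, 6 in each clone and 3 for HoxA9-Ct ES, and their summed signal was 0.99, 3.61, 4.45 and 0.51 times the 75th percentile in parental cells, clone #1, clone #9 and HoxA9-Ct ES. The trophectoderm markers numbered 2, 4, 4 and 1 of 5 above background in the same order, with summed signals of 0.84, 1.42, 1.48 and 1.09. Eomes was the brightest of them in every line. Of the 5 fibroblast markers, 2, 3, 3 and 2 were well above background, with summed signals of 7.56, 9.27, 17.4 and 10.5. Thy1, at levels of 2.89, 3.18, 4.06 and 3.36, made up most of each of these sums. Col1a1, Col1a2 and Thy1 lay 1.93, 2.70 and 1.17 above parental cells in clone #9, while Postn and Dcn were not well above background in any line. Of 4 markers of the 2-cell-like state with a probe, 4, 2, 4 and 4 were well above background, with summed signals of 26.7, 14.4, 36.7 and 24.3. Zfp352 was the brightest of them in each line except clone #9, where Zscan4c was, and these genes made up most of each sum. The part of these cell states in the results was not tested. In these bulk samples fewer cells of a type and less RNA per cell cannot be told apart.

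The transport genes were measured in nearly every case and lay close to the parental level. All 4 lines had 46 of the 47 genes well above background. The exception was Nup214, which was not well above background in parental cells. In clone #1, 44 of the 47 genes lay within 1.25-fold of parental cells, where 71.5% of probes with signal in all lines did. The count was 35 in clone #9, against 60.3% of probes, and 45 for HoxA9-Ct ES, against 81.0%. The probes behind these and the following shares were not matched to the genes in brightness, and the part of brightness in the counts was not tested. No gene of the set rose past 1.5-fold in both clones, where 3.42% of the probes well above background did, and none was lower by that much in both, where 3.28% of probes were. In HoxA9-Ct ES 1 gene lay more than 1.5-fold above parental cells, Nup214, which is itself not among the probes well above background in all lines, of which 3.25% lay as far above. In the same line 0 genes lay as far below, beside 2.08% of these probes.

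**Figure D1:**
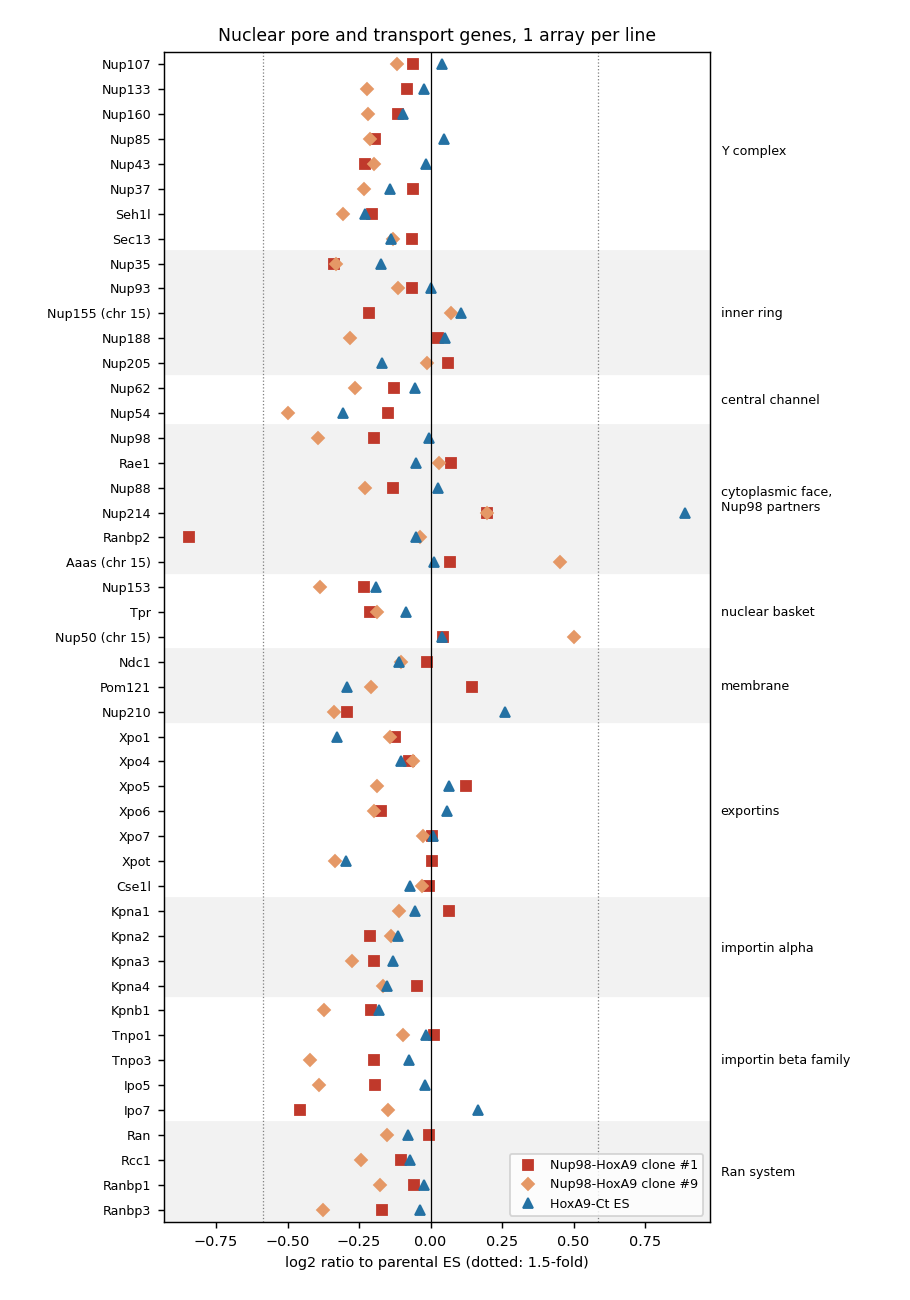
Difference from parental ES cells (x axis, log2 ratio) of the 47 genes (y axis, grouped by place in the pore or role), with 1 point for each of clone #1 (squares), clone #9 (diamonds) and HoxA9-Ct ES (triangles). Most points lie left of 0 and within the dotted 1.5-fold lines, and the points past these lines belong to Ranbp2 in clone #1 and Nup214 in HoxA9-Ct ES.

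limma called none of the 47 genes at an adjusted p under 0.05. It called 1.41% of all 55562 probes tested between the clones and parental cells, 0.405% between HoxA9-Ct ES and parental cells, and 1.36% between the clones and HoxA9-Ct ES. Among the 47 genes 0 reached even an unadjusted p under 0.05 in any of these comparisons, and the lowest adjusted p of limma was 1.00. The spread behind this test came from the clones alone, with 1 residual degree of freedom, and limma shared 1 spread over all probes. The standard error was therefore 0.56 on the log2 scale for every comparison with the clones, and 0.64 between HoxA9-Ct ES and parental cells. The smallest difference that limma called anywhere on the array was 1.89 for the clones against parental cells. With a spread that follows the signal (trend and robust settings of limma), the standard errors for the clones against parental cells ran from 0.21 to 0.60 with a median of 0.22, and again 0 genes of the set were called. Under these settings Nup210 alone had an unadjusted p under 0.05, for the clones against HoxA9-Ct ES, with an adjusted p of 0.24. The differences below are therefore measurements of single lines, and none of them passed the test.

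**Figure D2:**
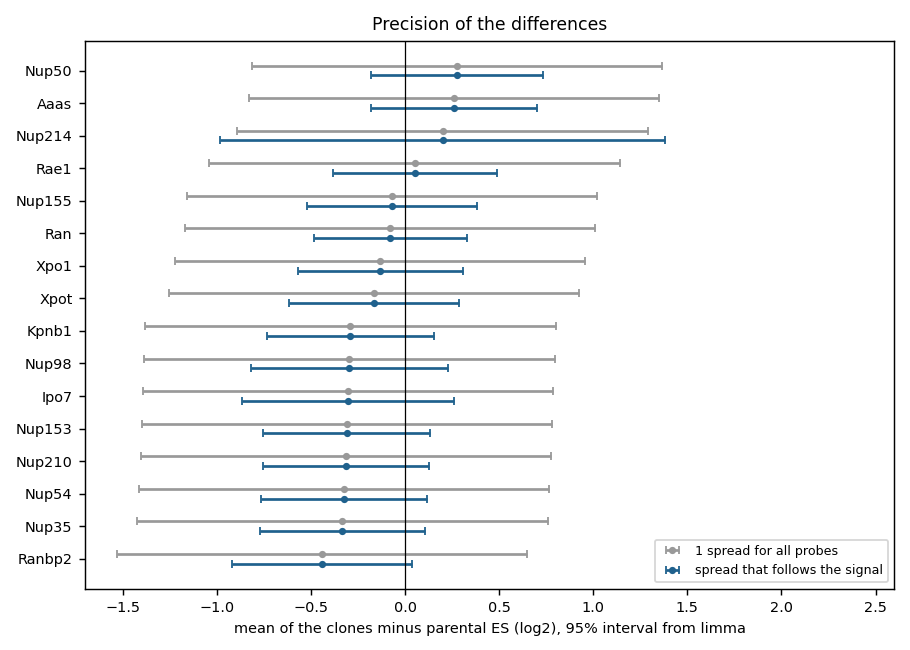
Mean of both clones minus parental ES cells (x axis, log2) for 16 genes of the set picked by rule (y axis). The 95% intervals are from limma under 1 spread for all probes (grey) and under a spread that follows the signal (blue). Every interval includes 0, and for Ranbp2 the narrower one runs from -0.92 to 0.04.

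In both clones 34 of the 47 genes (72.3%) lay below parental cells, 4 lay above in both, and 9 lay on either side. Of the probes well above background in all lines, 44.5% lay below parental cells in both clones and 26.4% lay above. The median difference from parental cells was -0.10 in clone #1, -0.19 in clone #9 and -0.05 for HoxA9-Ct ES. The same median over the 25529 probes well above background in all lines was -0.03, -0.12 and 0.00, so clone #9 as a whole sat below parental cells on this scale. Relative to that probe median, the set stood at -0.074 in clone #1, -0.073 in clone #9 and -0.054 for HoxA9-Ct ES, and 28 genes lay below it in both clones while 10 lay above it in both, beside 35.5% of probes in either direction. After quantile normalization these counts were 22 and 11, beside 35.9% of probes. The number below parental cells in both clones depended on the scaling, with 27 after quantile normalization, 31 after centring on the median of the array and 35 after normexp background correction.

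Both clones lay below both other lines for 23 of the 47 genes (48.9%), where 32.3% of the probes well above background showed this order. Both clones lay above both other lines for 3 genes, Nup50, Rae1 and Aaas, beside 17.3% of probes. The excess over all probes depended on the scaling. The count below was 18 (38.3%) after quantile normalization, where 27.6% of probes showed the order, and also 18 after normexp correction, beside 31.9% of probes. It was 14 (29.8%) after centring on the median, close to the 25.3% of probes. The count above was 6, 5 and 2 under these settings. The genes below were the scaffold members Nup107, Nup133, Nup160, Nup85, Nup43, Nup35 and Nup93, the channel and filament members Nup62, Nup98 and Nup88, the basket members Nup153 and Tpr, the membrane protein Nup210, the exportin Xpo6, the importins Kpnb1, Kpna2, Kpna3, Tnpo3, Ipo5 and Ipo7, and the Ran cofactors Rcc1, Ranbp1 and Ranbp3. The primitive endoderm markers were higher in the same 2 lines, and their part in these differences was not tested.

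The windows upstream of the transcription starts show what kind of promoter these genes have. RefSeq windows (GRCm38.p6) of 250 bases upstream of a start were at hand for 37 of the 47 genes, 42 windows in all, because some genes have several starts. The median GC content was 64.2% in these windows and 52.4% in all 32851 windows of that length, and the median ratio of observed to expected CpG was 0.868 against 0.373. A GC box (GGGCGG on either strand) stood in 64.3% of the members' windows and 32.7% of all windows. An NRF1 core (GCATGCGC, either strand) stood in 14.3% (6 windows) against 2.26%, and an ETS core (CCGGAAG) in 19.0% (8 windows) against 6.91%. A YY1 core (AAGATGGCG) stood in 4.76%, which is only 2 windows, against 0.606%. The windows were not compared with those of other expressed genes. A CCAAT box (CCAAT) stood in 42.9% against 33.8%, and a TATA box (TATAAA) in 11.9% against 12.4%. The counts are matches of letters on both strands, which for the NRF1 core can overlap each other, and no binding was measured. These windows are shown for 3 genes that the results turn on, the fused gene Nup98 (first of 2 starts), its export partner Xpo1, and Nup50, the member furthest above parental cells in clone #9. Capitals mark the matches to the 6 motifs, and each sequence reads towards the gene.
Nup98 (chr7:102210167-102210416, minus strand): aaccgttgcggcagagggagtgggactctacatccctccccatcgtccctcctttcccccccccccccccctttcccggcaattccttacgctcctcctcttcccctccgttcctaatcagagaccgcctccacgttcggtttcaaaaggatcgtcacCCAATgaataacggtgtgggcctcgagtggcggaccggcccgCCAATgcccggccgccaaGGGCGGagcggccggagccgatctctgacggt
Xpo1 (chr11:23255791-23256040, plus strand): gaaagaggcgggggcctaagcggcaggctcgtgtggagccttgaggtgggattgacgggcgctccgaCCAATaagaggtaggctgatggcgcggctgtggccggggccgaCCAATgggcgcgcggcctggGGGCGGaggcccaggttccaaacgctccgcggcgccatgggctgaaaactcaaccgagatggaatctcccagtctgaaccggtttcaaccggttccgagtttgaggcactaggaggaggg
Nup50 (chr15:84923178-84923427, plus strand): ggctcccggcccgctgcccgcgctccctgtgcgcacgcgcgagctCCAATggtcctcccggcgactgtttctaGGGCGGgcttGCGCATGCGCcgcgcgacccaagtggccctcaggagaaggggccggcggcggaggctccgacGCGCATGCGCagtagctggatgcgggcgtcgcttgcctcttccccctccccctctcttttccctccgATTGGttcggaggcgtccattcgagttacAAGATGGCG
The window of Nup98 held 3 matches, a pair of CCAAT boxes and a GC box, and that of Xpo1 also held 3 matches of the same kinds. The window of Nup50 held 8 matches, among them NRF1 cores that read on both strands and a YY1 core that ends next to the transcription start.

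Nup98, the mobile FG nucleoporin whose N-terminal part is in the fusion, had a level of 1.32 in parental cells, 1.12 in clone #1, 0.92 in clone #9 and 1.31 for HoxA9-Ct ES. Both clones lay below both other lines, and parental cells and HoxA9-Ct ES were nearly equal. The mean of the clones was -0.30 from parental cells (SD between clones 0.14, n = 2), and the interval of limma ran from -1.39 to 0.79. The transgene carries human Nup98, and the place of the probe in the transcript is not given in the files, so whether the probe also reads the transgene was not tested. Rae1, an mRNA export factor that binds Nup98, stood at 4.38 in parental cells, 4.45 in clone #1, 4.41 in clone #9 and 4.33 for HoxA9-Ct ES. The clones were uppermost, by 0.07 and 0.03 above parental cells.

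Xpo1, the export receptor to which the fusion was localised in the study, had levels of 4.25, 4.12, 4.11 and 3.92 in parental cells, clone #1, clone #9 and HoxA9-Ct ES. Its other probe gave 3.92, 3.68, 3.74 and 3.68 in the same order. At both probes parental cells were highest, and the clones lay above HoxA9-Ct ES at the brighter probe but not both at the other. The mean of the clones was -0.13 from parental cells (SD 0.012, n = 2), with an interval from -1.22 to 0.96 in limma, and HoxA9-Ct ES was 1.25-fold below parental cells.

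The other FG nucleoporins that the study joined to HoxA9 were Nup153 and Nup214. Nup153, a basket protein that docks importins, had 10 spots on the array, with means of 3.71 in parental cells, 3.48 in clone #1, 3.33 in clone #9 and 3.52 for HoxA9-Ct ES and SDs between spots of 0.037 to 0.039. Every spot of parental cells was brighter than every spot of the other lines, and clone #9 lay lowest. Nup214, which holds export complexes at the cytoplasmic face, was at -4.26 and not well above background in parental cells, at -4.06 in both clones and at -3.37 in HoxA9-Ct ES. On this scale the clones were 1.15-fold and HoxA9-Ct ES 1.85-fold above the parental signal, read from 1 dim spot an array. With normexp correction the mean of the clones was only 0.0051 above parental cells, and 0 genes passed 1.5-fold in HoxA9-Ct ES. limma gave an adjusted p of 1.00 for both.

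**Figure D3:**
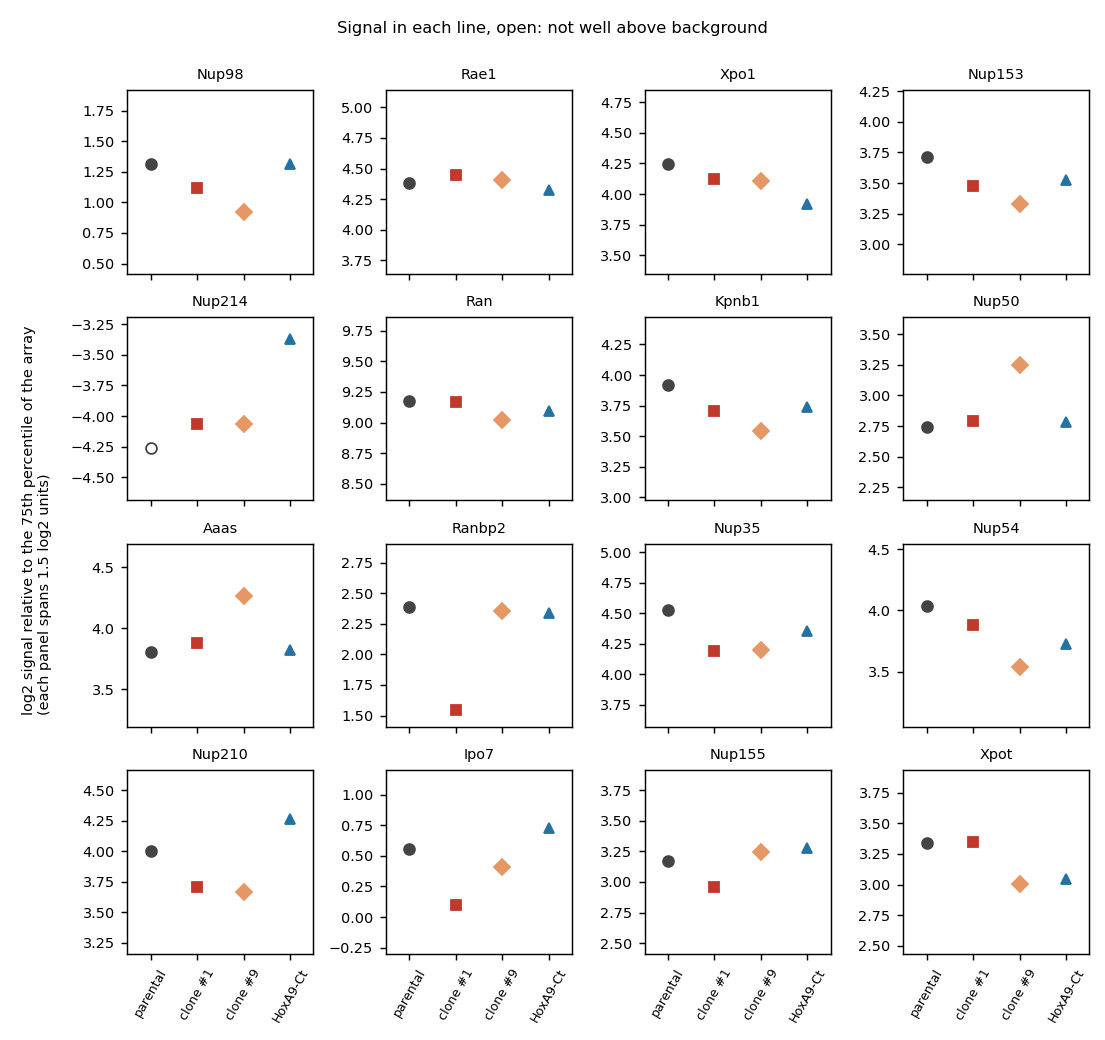
Level (y axis, log2 ratio of the signal to the array's 75th percentile) in each line (x axis) for the same 16 genes picked by rule. There is 1 array per line, and every panel spans 1.5 log2 units around its own mean. The open circle marks Nup214 in parental cells, which was not well above background; Ranbp2 is low in clone #1 alone and Nup50 and Aaas are high in clone #9.

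The 8 genes of the Y complex, the outer scaffold ring, all lay below parental cells in both clones, where 44.5% of probes did. The median difference was -0.10 in clone #1 and -0.21 in clone #9, and in HoxA9-Ct ES it was -0.06 with 6 of the 8 below. Differences in the clones ran from -0.31 for Seh1l in clone #9 to -0.06 for Nup37 and Nup107 in clone #1, with Nup133, Nup160, Nup85, Nup43 and Sec13 between them. After quantile normalization 7 of the 8 lay below in both clones, beside 40.6% of probes. Nup107, a core subunit, was at 5.83, 5.77, 5.71 and 5.87 in parental cells, clone #1, clone #9 and HoxA9-Ct ES. Nup85 read 6.18, 5.98, 5.96 and 6.22, and Nup43 read 5.01, 4.78, 4.81 and 4.99. For all of these the clones were the lower pair.

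In the inner ring, the scaffold next to the membrane, Nup35 had the lowest difference in both clones when each gene was read at its brightest probe. Nup35 stood at 4.53 in parental cells, 4.19 in clone #1, 4.20 in clone #9 and 4.36 for HoxA9-Ct ES, and its other probe gave 4.43, 4.21, 4.18 and 4.31. The clones lay below both other lines at both probes. The mean of the clones was 1.26-fold below parental cells (log2 difference -0.33, SD between clones 0.0034, n = 2), and limma gave an adjusted p of 1.00 with 1 spread for all probes and 0.90 with a spread that follows the signal. Nup93 differed from parental cells by -0.07 and -0.11 in the clones, Nup188 by 0.02 and -0.28, and Nup205 by 0.06 and -0.01. In clone #9 a dimmer probe of Nup93 gave -0.43 and 1 of Nup188 gave -0.54, both below Nup35. Nup155, an inner ring gene on chromosome 15, read 3.17, 2.96, 3.24 and 3.28 in parental cells, clone #1, clone #9 and HoxA9-Ct ES, so that clone #1 alone lay below parental cells.

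The channel protein Nup54, which forms FG filaments with Nup62, gave 4.03 in parental cells, 3.88 in clone #1, 3.54 in clone #9 and 3.73 for HoxA9-Ct ES. Parental cells were highest and clone #9 lowest, and the other probe had the same order. The difference of clone #9 from parental cells, -0.50, was the lowest of the 47 genes in that clone at their brightest probes. Nup62 read 6.77, 6.64, 6.50 and 6.71 in the same order of lines, again lowest in clone #9.

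On the cytoplasmic face, Ranbp2, the filament protein with SUMO ligase activity, had levels of 2.39 in parental cells, 1.54 in clone #1, 2.35 in clone #9 and 2.34 for HoxA9-Ct ES. Clone #1 was 1.80-fold below parental cells, and clone #9 and HoxA9-Ct ES differed from parental cells by -0.04 and -0.05. This was the largest difference between the clones among the 47 genes, 0.81, and it rests on 1 probe with 1 spot. Aaas, the nucleoporin mutated in triple A syndrome, read 3.81, 3.88, 4.26 and 3.82 in parental cells, clone #1, clone #9 and HoxA9-Ct ES, with clone #9 alone standing apart. Nup88, which anchors Nup214, was at 3.89, 3.76, 3.66 and 3.92.

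In the basket, Tpr, its main filament, was at 1.60, 1.39, 1.42 and 1.52 in parental cells, clone #1, clone #9 and HoxA9-Ct ES, with the clones lowest. Nup50, a cofactor of importin-based import that binds Nup153, had mean levels over its spots of 2.75 in parental cells, 2.79 in clone #1, 3.25 in clone #9 and 2.79 for HoxA9-Ct ES, with SDs between spots of 0.021 to 0.044. Every spot of clone #9, from 3.20 to 3.29, was brighter than every spot of the other lines, of which the brightest was 2.84. The mean of the clones was 0.27 above parental cells (SD between clones 0.32, n = 2), so the clones differed from each other by more than their mean differed from parental cells.

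**Figure D4:**
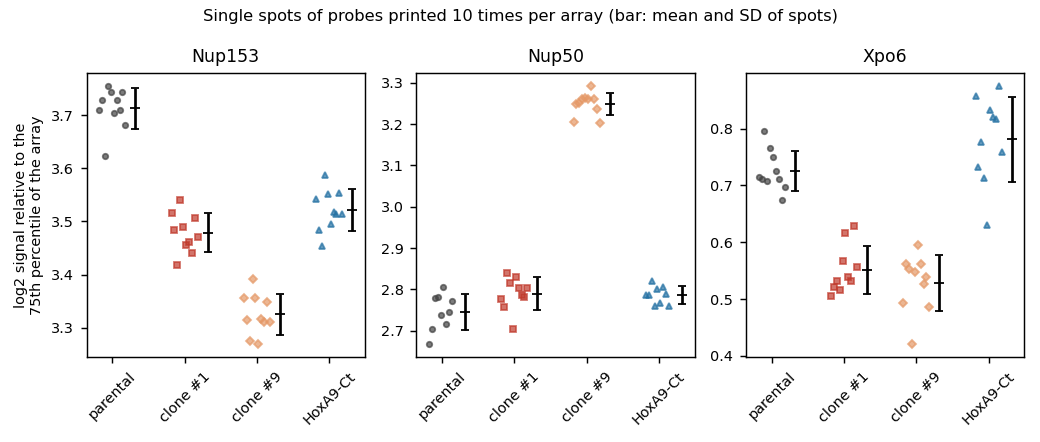
Single spots (points) of the probes for Nup153, Nup50 and Xpo6, which are printed 10 times on each array, as log2 ratio of the signal to the array's 75th percentile (y axis) in each line (x axis), with the mean and SD between spots as bars; each panel has its own scale. The spots show measurement error on an array, not variation between cultures, and those of Nup50 in clone #9 lie above all others.

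Of the membrane nucleoporins, Nup210 was the one gene that stood higher in HoxA9-Ct ES than in parental cells by 0.26 while lower in both clones. Its levels were 4.0 in parental cells, 3.71 in clone #1, 3.67 in clone #9 and 4.26 for HoxA9-Ct ES, and the other probe gave -1.66, -1.90, -2.21 and -1.54. Both probes thus put HoxA9-Ct ES first, parental cells next and the clones last. The mean of the clones was 1.49-fold below HoxA9-Ct ES (SD 0.032, n = 2). Pom121, an anchor of the pore in the membrane, differed from parental cells by 0.14 in clone #1, -0.21 in clone #9 and -0.29 for HoxA9-Ct ES. Ndc1 differed by -0.01, -0.10 and -0.11.

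Among the 7 exportins, 4 lay below parental cells in clone #1 and all 7 in clone #9, with medians of -0.01 and -0.14. The medians over the probes well above background in all lines were -0.03 and -0.12, so the exportins lay near them. Xpot, the exporter of tRNA, read 3.34 in parental cells, 3.34 in clone #1, 3.0 in clone #9 and 3.04 for HoxA9-Ct ES, so that 1 clone was level with parental cells and the other with HoxA9-Ct ES. At its other probe clone #9 lay between, at -0.30 from parental cells, where HoxA9-Ct ES lay at -0.60. Xpo6, the exporter of actin, had spot means of 0.73, 0.55, 0.53 and 0.78 with SDs of 0.036 to 0.075, and the clones lay below both other lines. Xpo5, the exporter of pre-miRNA, differed from parental cells by 0.12 in clone #1, -0.19 in clone #9 and 0.06 for HoxA9-Ct ES. Cse1l, which returns importin alpha to the cytoplasm, differed by -0.01, -0.03 and -0.07, and Xpo4 by -0.08, -0.06 and -0.10. Xpo7 differed by 0.00, -0.03 and 0.01 at its brighter probe, but a dim second probe gave 0.49, 0.66 and 0.42 above parental cells.

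Importin alpha proteins recognise the classical import signal. Kpna2, which ES cells use strongly, was at 7.66, 7.45, 7.52 and 7.54 in parental cells, clone #1, clone #9 and HoxA9-Ct ES, and its 4 probes gave differences of -0.21 to -0.18 in clone #1 and -0.24 to -0.14 in clone #9. Kpna3 read 3.16, 2.96, 2.89 and 3.03. For both genes parental cells were highest and the clones lowest. Kpna1 differed from parental cells by 0.07 and -0.11 in the clones, and Kpna4 by -0.05 and -0.16.

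Kpnb1, importin beta itself, carries importin alpha and many cargoes through the pore. It stood at 3.92 in parental cells, 3.71 in clone #1, 3.54 in clone #9 and 3.74 for HoxA9-Ct ES, with the mean of the clones 1.22-fold below parental cells (SD on the log2 scale 0.11, n = 2). Ipo7, an importer of ribosomal proteins, read 0.56, 0.10, 0.41 and 0.73 in the same order. The clones were lowest for both, by more in clone #9 for Kpnb1 and by more in clone #1 for Ipo7. Tnpo3, which imports SR splicing factors, differed from parental cells by -0.20 in clone #1 and -0.42 in clone #9, and Ipo5 by -0.19 and -0.39, while HoxA9-Ct ES differed by -0.08 and -0.02. Tnpo1, the importer of proteins with a PY signal, differed from parental cells by 0.01 and -0.10 in the clones and by -0.02 for HoxA9-Ct ES. A dimmer probe of Tnpo1 gave -0.46 in clone #1 and -0.02 in clone #9.

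Ran itself, the GTPase that sets the direction of transport, gave 9.17 in parental cells, 9.17 in clone #1, 9.02 in clone #9 and 9.09 for HoxA9-Ct ES. Clone #1 matched parental cells to the second decimal and clone #9 was 1.11-fold below clone #1. A dimmer probe of Ran gave 3.61, 3.73, 3.47 and 3.43, with clone #1 above parental cells. Rcc1, the exchange factor that loads Ran with GTP on chromatin, read 6.32, 6.22, 6.08 and 6.25. Ranbp1, which helps release Ran from receptors, read 5.47, 5.41, 5.29 and 5.45, and Ranbp3, a cofactor of Xpo1, read 5.34, 5.17, 4.96 and 5.31. In each of these 3 genes the clones were the lower pair and clone #9 the lowest line, with differences from parental cells of -0.24, -0.18 and -0.38. After quantile normalization 2 of the 4 Ran genes lay below parental cells in both clones, in place of all 4. The share of probes below in both was 40.6% after quantile normalization and 44.5% as reported.

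The clones differed from each other by more than 1.25-fold in 6 of the 47 genes, beside 28.8% of probes: Nup50, Nup54, Ranbp2, Pom121, Aaas and Xpot. Ranbp2, Nup50 and Aaas were higher in clone #9, and the others were higher in clone #1. Probes of chromosome 15 as a whole were higher in clone #9, with a median difference between the clones of 0.38 over 637 probes, against -0.06 over 15660 probes of other chromosomes. The 3 genes of the set on chromosome 15, Nup50, Aaas and Nup155, differed by 0.46, 0.39 and 0.29, and ranked 2, 3 and 5 of the 47. Of the 44 genes on other chromosomes, 37 were lower in clone #9 than in clone #1, and their median difference was -0.10. With a median of -0.06, the probes of those chromosomes were also more often lower than higher in clone #9. The number of copies of chromosome 15 in the clones was not measured, and its part in these values was not tested.

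**Figure D5:**
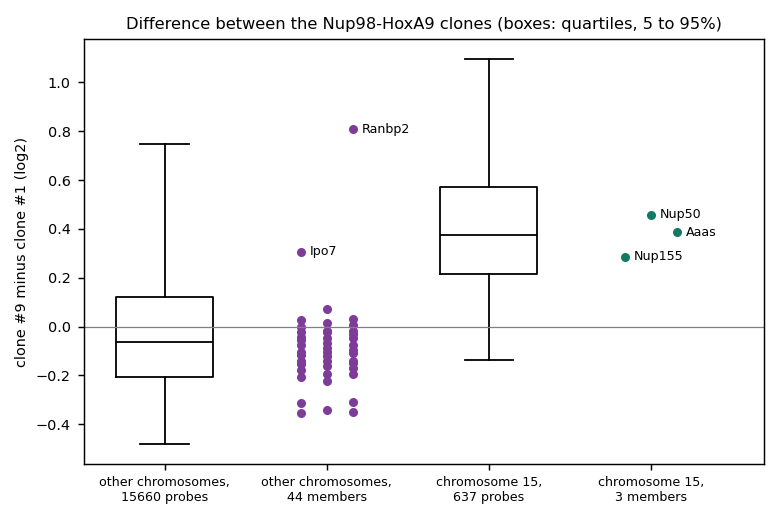
Clone #9 minus clone #1 (y axis, log2) for all probes well above background that have a named gene (boxes with quartiles, whiskers from the lowest to the highest 5%) and for the genes of the set (points), on chromosome 15 and on other chromosomes. The 3 genes on chromosome 15 lie between 0.29 and 0.46, near the median of that chromosome's probes, and Ranbp2 at 0.81 is the highest point on another chromosome.

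Where a gene had several probes, they mostly lay on the same side of parental cells. Of the 15 genes with more than 1 probe, 11 had all probes on the same side of parental cells in both clones and 14 for HoxA9-Ct ES. The exceptions in the clones were Ran, Nup188, Tnpo1 and Xpo7. The median range between the probes of a gene was 0.12 in clone #1, 0.10 in clone #9 and 0.083 for HoxA9-Ct ES.

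The other genes of nuclear transport on the array, 28 genes outside the set, had similar medians. Their median difference from parental cells was -0.05 in clone #1, -0.20 in clone #9 and -0.06 for HoxA9-Ct ES, and 26 were well above background in all lines. limma called 0 of the 28 in any comparison, and 1, Kpna7, had an unadjusted p under 0.05, for the clones against parental cells (adjusted p = 0.093) and against HoxA9-Ct ES (adjusted p = 0.48). Kpna7, the importin alpha of oocytes and early embryos, had levels of -4.07 in parental cells, -3.44 in clone #1, -1.20 in clone #9 and -3.60 for HoxA9-Ct ES, where the parental value lay too near background to be called above it. Clone #9 thus stood far above the other lines. Of the 4 markers of the 2-cell-like state, Zscan4c, Tcstv1 and Tcstv3 lay above parental cells in clone #9, by 1.92, 1.06 and 1.54. In clone #1 they differed by -2.90, -3.43 and -2.86, with Tcstv1 and Tcstv3 not well above background there. The fourth, Zfp352, lay lower than parental cells in both clones, at -0.55 in clone #1 and -0.88 in clone #9. The part of this cell state in the value of Kpna7 was not tested. With a spread that follows the signal limma called Kpna7 higher in the clones than in parental cells (adjusted p = 0.028). Under these settings Nup62cl and Eny2 also had an unadjusted p under 0.05, against parental cells and against HoxA9-Ct ES, and were not called. Nup62cl, a gene related to Nup62, read -0.58, 0.12, 0.08 and -0.89, with both clones above both other lines. The mRNA exporter genes Nxf1 and Nxt1 differed from parental cells by -0.20 and -0.23 in clone #1 and by -0.36 and -0.27 in clone #9. Rangap1, which switches off Ran in the cytoplasm, and Eny2, both on chromosome 15, lay 0.29 and 0.75 above parental cells in clone #9, against -0.22 and 0.18 in clone #1.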

How the data were processed

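RNA of 4 ES lines was measured on one-colour Agilent arrays (8 × 60K), which the authors scanned and read with Feature Extraction 10.10.1.1. What the authors deposited is, for each spot, an intensity with background subtracted. The deposited series matrix holds the same intensity values times a constant for each array, without log2. Per the files' headers the array annotation is of mm9, of which no coordinates were used. Control spots and outlier spots were left out, each signal was divided by the 75th percentile of its array and put on the log2 scale, and spots of a probe were averaged. A gene was named through its RefSeq transcript and read at its brightest probe. limma 3.58.1 in R 4.3.3 fitted 3 groups (lmFit, eBayes, Benjamini-Hochberg over 55562 probes), and the fit was tested on simulated data. Normexp correction (offset 50) used the median spot signal, because the scanner files used here have no mean signal column. Genes picked by rule for the figures of intervals and levels were those central to the fusion and to Ran, and genes not well above background in a line. The rule also took the largest differences of the clones and of HoxA9-Ct ES, and the largest differences between clones. Other genes of the set were described with their part of the pore or pathway. For a probe dim in a line, a fold was taken against the higher of its own signal and the lowest signal called well above background. For Nup214 this was its own parental signal, so its folds are plain ratios and not lower bounds. Members and lists were chosen with earlier results of these data known. The number of arrays limits the precision, and p-values measure the spread between clones only.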

Additional observations from a re-analysis of the deposited data

How the results depend on the processing

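limma called none of the 47 genes under any background correction, scaling, probe rule, filter or spread that was tried. At an unadjusted p under 0.05, between 0 and 2 genes passed in these fits. The count past 1.5-fold above parental cells in HoxA9-Ct ES, 1 as reported, was 0 with normexp correction and 0 at a 2-fold threshold. The count lower in both clones, 0 as reported, ran from 0 to 1 when a clone was left out, and the 1 is Ranbp2 without clone #9. The set's median relative to the probes' median in clone #1, -0.074 as reported, was -0.091 with normexp, -0.070 with quantile normalization and -0.094 with the mean over a gene's probes. In clone #9, -0.073 as reported became -0.049, -0.035 and -0.081 under the same settings. In HoxA9-Ct ES, -0.054 became -0.104 with normexp and -0.039 with quantile normalization. All of these stayed negative, and the cause of the shifts was not tested. The difference of the clones from parental cells turned positive for Nup155 without clone #1 (0.073, against -0.21 without clone #9) and for Xpot without clone #9 (0.0042, against -0.34 without clone #1), each being the other clone's own value. Over the whole array limma called 0 probes with quantile normalization or with a filter on dim probes (5104 and 2224 at an unadjusted p under 0.05 for the clones against parental cells). It called 9 higher and 0 lower with both clones against parental cells and HoxA9-Ct ES together. These fits could hardly have called a gene of the set. With a spread that follows the signal it called 617 higher and 626 lower for the clones against parental cells, against 434 and 347 as reported. Fits with 1 clone against parental cells and HoxA9-Ct ES together, and shares over bright probes only, were added after seeing the data. No paired analysis was possible because the groups share fewer than 2 replicate numbers.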
